A study of Mus musculus with 2 samples.

Results

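Genomic imprinting was followed in KPC2 mouse pancreatic cancer cells through a list of 32 imprinted genes, picked by symbol from the 55468 gene rows of the deposited table. All 32 symbols had a row, and each row's Ensembl identifier was found in the GENCODE M21 annotation on GRCm38. The series holds 1 library of wild type KPC2 cells that received no drug and 1 library of gemcitabine-resistant KPC2 cells, kept long-term in 260 ng/mL gemcitabine, a deoxycytidine analogue used against pancreatic cancer. Both were grown in the same serum-containing medium, per the labels, which do not say whether the resistant cells are a clone or a pool. Values were read as FPKM, fragments per kilobase of transcript scaled to library size. Each group has 1 library, so no difference below has a replicate check or a test. Drug in the medium and a lasting property of the resistant cells cannot be told apart, nor can fewer cells of a type and less RNA per cell in these bulk libraries.

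An imprinted gene is transcribed mainly from the copy inherited from 1 parent. The choice is written in the germ line as DNA methylation at a control region, which is kept through later cell divisions by the maintenance methyltransferase and by zinc finger proteins that recruit KAP1, and it often governs several neighbouring genes at once. Many paternally expressed genes promote fetal growth and many maternally expressed ones restrain it, and most are quiet in adult epithelium. The table counts RNA from both copies together, so nothing below speaks of which parental copy was read, and the parental class of each gene is textbook background.

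By the positions in the table the 32 genes fell into 14 clusters, where genes on 1 chromosome no more than 3 Mb apart were joined. Splitting the one on distal chromosome 7 into its Igf2-H19 and Kcnq1ot1 domains gave 15 domains. Members of a domain share control regions and are not independent observations.

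The measured member with the log2 ratio of greatest size was Peg3, in a domain where Peg3 and Usp29 start back to back and share 1 promoter. The stretch between their RefSeq start sites (GRCm38.p6, chr7:6730420-6730582, 163 bases, read on the Peg3 strand) is shown first. Beside it are the 250 bases before 1 of the RefSeq starts of Mest (chr6:30737800-30738049, plus strand). Those before the starts of Phlda2 (chr7:143502525-143502774, minus strand) and Slc22a18 (chr7:143473539-143473788, plus strand) follow. Mest, Phlda2 and Slc22a18 were taken because they passed the 2-fold line used below. CpG dinucleotides, the sites that imprint methylation uses, are in capitals.
Peg3-Usp29: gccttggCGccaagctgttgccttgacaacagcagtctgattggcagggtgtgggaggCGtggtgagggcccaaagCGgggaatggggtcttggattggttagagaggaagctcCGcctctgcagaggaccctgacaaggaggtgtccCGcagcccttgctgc
Mest: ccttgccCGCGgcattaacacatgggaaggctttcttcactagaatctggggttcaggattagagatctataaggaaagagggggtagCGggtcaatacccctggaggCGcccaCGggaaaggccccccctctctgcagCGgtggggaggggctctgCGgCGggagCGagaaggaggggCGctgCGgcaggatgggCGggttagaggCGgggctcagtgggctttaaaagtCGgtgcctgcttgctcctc
Phlda2: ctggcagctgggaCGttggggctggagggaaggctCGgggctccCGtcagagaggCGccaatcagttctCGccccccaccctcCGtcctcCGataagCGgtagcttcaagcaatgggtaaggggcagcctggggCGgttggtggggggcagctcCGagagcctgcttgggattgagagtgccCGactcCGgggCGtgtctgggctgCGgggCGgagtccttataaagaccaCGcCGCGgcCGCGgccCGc
Slc22a18: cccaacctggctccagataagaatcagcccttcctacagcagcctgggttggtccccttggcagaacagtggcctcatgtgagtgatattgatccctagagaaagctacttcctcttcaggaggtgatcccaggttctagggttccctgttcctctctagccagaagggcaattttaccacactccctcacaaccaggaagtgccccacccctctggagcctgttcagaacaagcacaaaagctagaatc

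These stretches differ in CpG content. The 163 bases between Peg3 and Usp29 hold 5 CpG, the 250 bases before Mest hold 14, those before Phlda2 hold 21, and those before Slc22a18 hold 0. Phlda2 and Slc22a18, neighbours that were both higher in resistant cells, are thus at opposite ends of this range. RefSeq windows from 250 bases before to 50 after a start were matched for 26 of the 32 genes, 39 windows in all, with a median of 13 CpG against 7 over 32851 windows of the same length. H19, Peg10, Sgce, Impact, Rtl1 and Cdkn1c had no entry.

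Letters associated with imprint control were searched on both strands of these windows. TGCCGC, the core recognised by ZFP57 when methylated, was found in windows of 9 members (Grb10, Igf2, Meg3, Mest, Nap1l5, Nnat, Plagl1, Snrpn and Zim1), in 10 of 39 windows against 11.6% of all windows. The 10 include Mest windows starting at 30737800 and 30737803, which are almost the same sequence. TGCCGC holds a CpG and member windows are richer in CpG (median 13 against 7), so these shares were not compared at equal CpG content. Mest has 2 such matches in the stretch printed above, and the Peg3-Usp29 stretch has 0. The window of an upstream Mest start (chr6:30733256-30733555) has 0 matches and 8 CpG. GCCATNTT, the core of a YY1 site, was found in 1 member window, that of Ube3a, and in 6.05% of all windows. A longer CTCF core motif was found in 0 member windows and in 0.0365% of all. A match is a string of letters in a window and was not linked to any binding here.

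Most members gave little or no RNA. In both libraries 16 of the 32 were listed at 0 (60.9% over all symbols in the table), another 6 lay above 0 but under 1 FPKM, and 10 reached 1 FPKM in at least 1 library, the level at which a gene is called measured here. Of the 26 protein-coding members, 13 were listed at 0 in both libraries, against 34.0% of all protein-coding symbols, and 9 were measured, against 48.3%. The 15 common reference genes checked were all above 0 in both libraries.

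**Figure D1:**
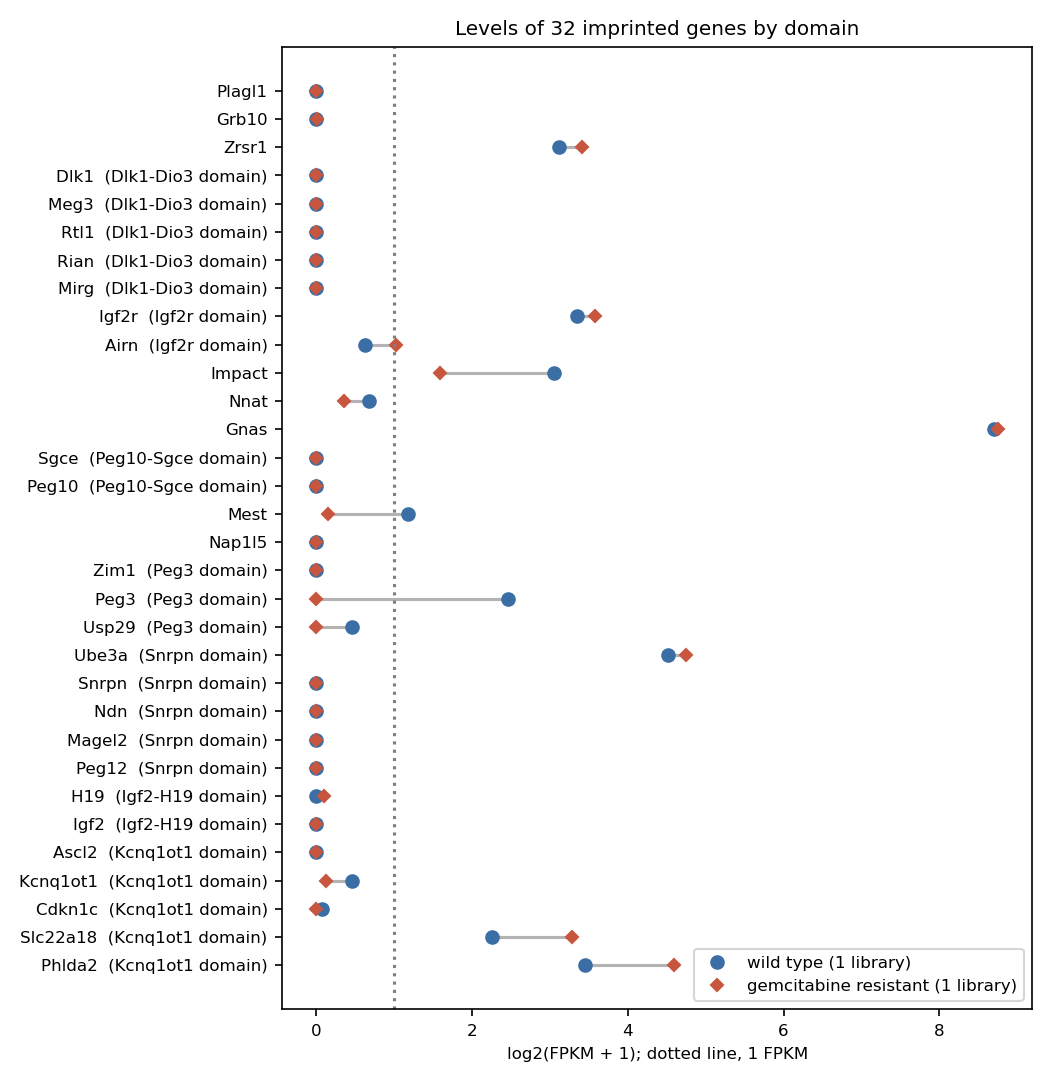
Level of each of the 32 imprinted genes, as log2(FPKM + 1), in the wild type library (circles) and the gemcitabine-resistant library (diamonds), grouped by chromosome with the domain in brackets and a dotted line at 1 FPKM. Peg3 drops from 4.52 FPKM to 0, Impact and Mest lie lower and Phlda2 and Slc22a18 higher in the resistant library, while Gnas stands far above the rest at 414 and 431 FPKM.

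Among the 10 measured members, 2 passed the 2-fold line on the higher side in resistant cells (Phlda2 and Slc22a18), 3 passed it on the lower side (Peg3, Impact and Mest) and 5 lay within 2-fold (Igf2r, Airn, Ube3a, Zrsr1 and Gnas). The measure is the log2 ratio of resistant to wild type after adding 1 FPKM to each, so that a ratio of 1 or more in size is called higher or lower. It understates differences of low genes. The background over 12193 measured genes was 7.90% past the line on the higher side and 8.37% on the lower side. With 5 FPKM added in place of 1, none of the 5 members stayed past the line. Peg3 and Mest counted as measured only through the wild type library, and Airn only through the resistant one, so for Peg3 and Mest a large difference follows in part from how they entered. The median log2 ratio of the 10 was 0.22, beside 0.02 for all measured genes.

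**Figure D2:**
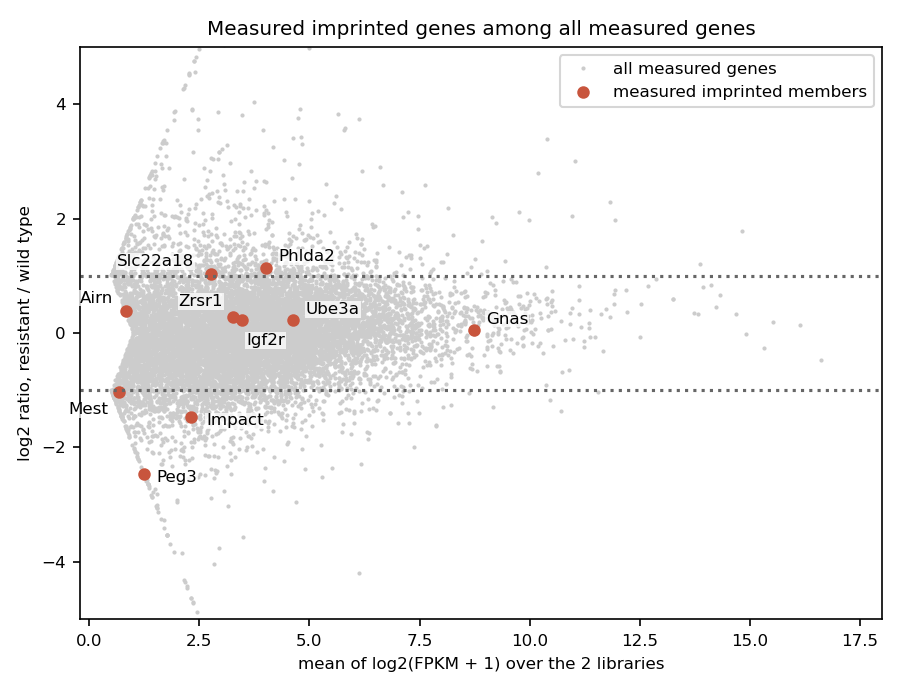
Log2 ratio of resistant to wild type against the mean log2(FPKM + 1) of both libraries, for all 12193 measured genes (grey) and the 10 measured imprinted genes (red), with dotted lines at 2-fold. The axis ends at a ratio of 5 in size, which leaves out 39 genes, none of them imprinted members. Peg3 lies on the lower edge formed by genes at 0 in the resistant library, and 5 of the 10 members lie between the lines.

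Peg3 encodes a zinc finger transcription factor with tumour suppressor activity (chr7:6703892-6730431, minus strand). It stood at 4.52 FPKM in wild type cells and was listed at 0 in resistant cells, a log2 ratio of -2.46 with the added 1 FPKM. Taking the longest annotated transcript, the wild type value rested on up to about 916 fragments. A count of 0 with an upper limit of 3 fragments would allow 0.0153 FPKM on that transcript, or 0.22 FPKM on the shortest annotated one, so both limits lie well under the wild type level. No fold is given against the 0. In the authors' deposited table Peg3 was the only member called, with a q-value of 0.0169. That table tested 11 members, and 0.404% of all 13850 genes it tested were called.

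Usp29, a ubiquitin-specific peptidase gene transcribed in the other direction from the same promoter (chr7:6730578-6967219, plus strand), showed the same pattern at a lower level. It stood at 0.38 FPKM in wild type cells, up to about 66.4 fragments, and was listed at 0 in resistant cells. Zim1, a maternally expressed zinc finger gene on the other side of Peg3, was listed at 0 in both libraries. All 3 members of the domain were therefore at 0 in resistant cells, where the wild type library held both genes of the shared promoter.

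Within the Peg3 domain 10 of the 11 other table rows had 0 in both libraries, beside 60.9% over all symbols. The imprinted zinc finger genes Zim3 and Zfp264 are among the 10, and the rest are a microRNA and predicted names. Zim2, another imprinted zinc finger gene, was also listed at 0 in both. Beyond the domain, of the 3 nearest measured genes on each side, taken by position, 0 of 6 passed the 2-fold line. All 6 had log2 ratios below 0, from -0.94 to -0.18, as did 6005 of the 12193 measured genes. Zfp28 and Zfp606 (1.96 and 0.54 FPKM) counted as measured only through the wild type library, so their direction was set by how they entered. Nearest before the domain was Zfp28, at 1.89 FPKM in wild type and 0.86 FPKM in resistant cells. Nearest after it was Zfp954, at 2.83 and 1.88 FPKM. None of the 6 was listed at 0.

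On distal chromosome 7 the Kcnq1ot1 domain holds growth-restraining genes that a paternally expressed non-coding RNA, Kcnq1ot1, silences in cis. Phlda2, a pleckstrin homology-like gene that limits placental growth, stood at 9.89 FPKM in wild type and 23.0 FPKM in resistant cells, a log2 ratio of 1.14. As an untransformed ratio this is 2.33 times, with a counting interval of 1.90 to 2.84 (95%, exact for 2 Poisson counts). Slc22a18, which encodes a transporter-like membrane protein and lies beside it, stood at 3.77 and 8.70 FPKM, a log2 ratio of 1.02, or 2.31 times with a counting interval of 1.87 to 2.88. These intervals take all fragments on the longest annotated transcript, cover counting error only and would widen with shorter transcripts. Slc22a18 lies close to the 2-fold line, and its log2 ratio was 0.94 when the resistant library was rescaled to the same upper quartile.

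Kcnq1ot1 itself was low in both libraries, at 0.37 FPKM in wild type and 0.087 FPKM in resistant cells. Because its single annotated transcript is very long, these levels still rested on about 815 and 185 fragments, and the untransformed wild type level was 4.27 times the resistant one (counting interval 3.63 to 5.03). It did not reach 1 FPKM and so is not among the genes counted above. Its antisense host Kcnq1, a potassium channel gene, was listed at 0 in wild type and stood at 0.06 FPKM in resistant cells. Cdkn1c, the p57 cyclin-dependent kinase inhibitor gene, stood at 0.048 FPKM in wild type, about 2 fragments, and was listed at 0 in resistant cells. Ascl2, a trophoblast and intestinal stem cell factor, was listed at 0 in both.

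Other genes of this region differed in both directions. Tssc4, imprinted and inside the domain, was at least 2-fold lower in resistant cells, at 4.57 against 12.7 FPKM, and Cd81, a tetraspanin gene, stood at 100.7 against 112.4 FPKM. Nap1l4, next to Phlda2, stood at 24.0 against 26.6 FPKM. Further out, Osbpl5 stood at 1.83 against 3.45 FPKM, and Dhcr7, a cholesterol synthesis gene, at 21.9 against 13 FPKM (log2 ratio 0.71). Of the 6 nearest measured genes outside the imprinted lists, Cars, the cysteinyl-tRNA synthetase gene 54.1 kb beyond Phlda2, passed the line, from 32.5 to 77.3 FPKM, and none of the other 5 did, Mrpl23 being the next highest in log2 ratio at 0.68 (17.8 and 29.1 FPKM). In the neighbouring Igf2-H19 domain the fetal growth factor gene Igf2 was listed at 0 in both libraries, and the non-coding RNA H19 was listed at 0 in wild type and stood at 0.072 FPKM in resistant cells, about 3.5 fragments.

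**Figure D3:**
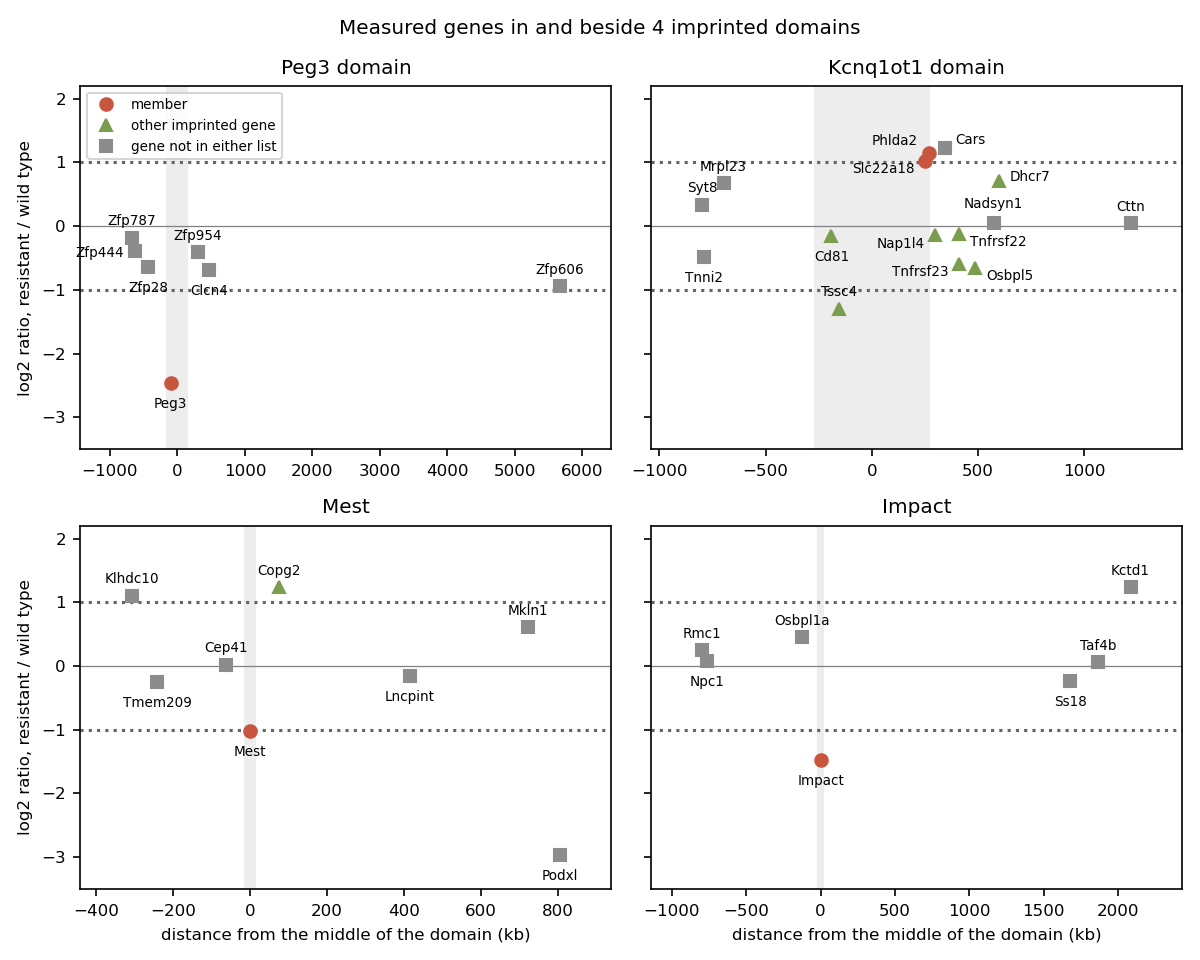
Log2 ratio of resistant to wild type for measured genes in and beside 4 domains, against distance in kb from the middle of each domain (shaded from the first to the last member). Members are red circles, other imprinted genes green triangles, the 3 nearest measured genes on each side grey squares, and dotted lines mark 2-fold. Peg3 and Impact lie below all their plotted neighbours, and in the Kcnq1ot1 domain Phlda2, Slc22a18 and Cars lie above the upper line while Tssc4 lies below the lower one.

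Impact and Mest, both paternally expressed and each alone in its domain on this list, were lower in resistant cells. Impact encodes an inhibitor of the activation of the amino acid sensor kinase GCN2 (chr18:12955852-12992950, plus strand). It stood at 7.29 FPKM in wild type and 1.99 FPKM in resistant cells, a log2 ratio of -1.47, or 3.66 times lower untransformed (counting interval 3.07 to 4.36). Its value passed 1 FPKM in both libraries, so its inclusion did not depend on the difference. The nearest neighbour, Osbpl1a, 14.0 kb away, stood at 4.94 and 7.14 FPKM, and of the 6 neighbours Kctd1 alone passed the line, on the higher side. Mest, the mesoderm-specific transcript gene of a hydrolase-like protein (chr6:30723547-30748465, plus strand), stood at 1.26 FPKM in wild type and 0.11 FPKM in resistant cells, up to about 75.5 and 6.6 fragments. Its log2 ratio was -1.02, just past the line, whereas untransformed it was 11.2 times lower, with a wide counting interval of 4.79 to 26.7. Its nearest neighbour Cep41, 29.8 kb away, stood at 5.46 and 5.54 FPKM. Of its 6 neighbours Klhdc10 (29.8 and 65.4 FPKM) passed the line on the higher side and Podxl (10.1 and 0.43 FPKM) on the lower. Around all domains 84 distinct neighbours were taken, of which 10 were past the line on the higher side and 4 on the lower. The shares over all measured genes were 7.90% and 8.37%. Neighbours were taken at any distance, up to 6618 kb for Tnip3 beside Nap1l5. Of the 4 lower ones Podxl, Abcg2 and Tigd2 counted as measured only through the wild type library. Of the 10 higher ones Egfr and Fuca2 did so only through the resistant library. The direction of all of these was set by how they entered.

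Mest and Copg2, a coat protein gene on the opposite strand, share 1 locus in the table. Copg2 went the other way, from 9.11 FPKM in wild type to 22.8 FPKM in resistant cells, a log2 ratio of 1.23. The sources used here do not give whether counting used strand, so fragments of overlapping genes on opposite strands cannot be told apart. In all, 22 of the 32 members share a locus row with another gene. Those with a measured partner on the other strand are Mest, Igf2r with Airn, Zrsr1 with Commd1, Nnat with Blcap, Nap1l5 with Herc3, and Gnas with Gnasas1.

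The other 5 measured members differed by less than 2-fold. Igf2r, the receptor that clears IGF2 and sorts lysosomal enzymes, stood at 9.21 FPKM in wild type and 10.9 FPKM in resistant cells (log2 ratio 0.23). Airn, the paternally expressed antisense RNA that silences Igf2r in cis, stood at 0.55 and 1.02 FPKM, about 16 and 29 fragments, and the counting interval of its ratio, 0.98 to 3.69, includes no difference. Airn overlaps Igf2r on the opposite strand, so the fragments of this pair cannot be told apart, and whether both RNAs were present was not tested. Gnas, whose row joins the stimulatory G protein alpha subunit with the other products of its locus, was the most abundant member at 414 and 431 FPKM, above 98.2% of measured genes in the wild type library. Ube3a, a ubiquitin ligase gene imprinted mainly in neurons, stood at 21.9 and 25.8 FPKM (log2 ratio 0.22). Zrsr1, a splicing factor retrogene of Zrsr2 inside Commd1, stood at 7.68 and 9.60 FPKM, and fragments could be divided between these copies.

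Members were listed at 0 together in several domains. All 5 members of the Dlk1-Dio3 domain on chromosome 12 (the Notch-like ligand gene Dlk1, the retrotransposon-derived Rtl1 and the non-coding RNAs Meg3, Rian and Mirg) were listed at 0 in both libraries, as were the other 97 table rows between them. Those sharing a locus with Meg3, Rtl1, Rian or Mirg are microRNAs or carry predicted or clone names. Over all symbols 60.9% were listed at 0 in both libraries. Dio3, the thyroid hormone-inactivating deiodinase gene at the far end of the domain, stood at 2.81 FPKM in wild type and 0.092 FPKM in resistant cells. In the Snrpn domain on chromosome 7, Snrpn, Ndn, Magel2 and Peg12 were listed at 0 in both libraries while Ube3a, in the same domain, was measured in both. Snhg14, the long paternally expressed RNA that runs antisense to Ube3a, stood at 0.27 and 0.048 FPKM. For genes with a single annotated transcript a limit of 3 fragments corresponds in resistant cells to 0.037 FPKM for Ndn, 0.029 FPKM for Magel2, 0.052 FPKM for Peg12 and 0.021 FPKM for Rtl1.

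Peg10 and Sgce on chromosome 6, Nap1l5 on the same chromosome and Plagl1 on chromosome 10 were also listed at 0 in both libraries. Grb10, an adaptor that restrains insulin and IGF1 receptors, was listed at 0 in wild type and stood at 0.0094 FPKM in resistant cells, about 1 fragment. Nnat, the neuronatin gene inside Blcap, stood at 0.60 and 0.28 FPKM, about 18.6 and 8.3 fragments.

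Grouped by the parental copy they are known to be read from, 4 of 12 maternally expressed members were measured (Igf2r, Ube3a, Phlda2 and Slc22a18), all 4 with a log2 ratio above 0 and 2 of them at least 2-fold higher. Of 19 paternally expressed members 5 were measured, with Peg3, Impact and Mest at least 2-fold lower and Zrsr1 and Airn within 2-fold above 0. Peg3 and Mest counted as measured only through the wild type library and Airn only through the resistant one. The direction of Peg3, Mest and Airn was therefore set by how they entered. For scale, resistant cells had the larger value for 6188 of the 12193 measured genes in the whole table. The share past the line was 7.90% on the higher side and 8.37% on the lower side. Ube3a was classed as maternally expressed here, although its imprinting is found mainly in neurons. Of the paternally expressed members under 1 FPKM, the 3 above 0 (Usp29, Kcnq1ot1 and Nnat) all had the smaller value in resistant cells. For Nnat, at about 18.6 and 8.3 fragments, the counting interval of the ratio, 0.16 to 1.04, includes no difference. The 3 maternally expressed members under 1 FPKM and above 0 were mixed, with Cdkn1c smaller and Grb10 and H19 larger in resistant cells, each on few fragments (at most about 2.0, 1.1 and 3.5). Other measured imprinted genes in or beside the Kcnq1ot1 domain, outside the list of 32, were mostly lower. Tssc4 was at least 2-fold lower. Within 2-fold, Cd81, Nap1l4, Osbpl5, Tnfrsf22 and Tnfrsf23 had log2 ratios below 0 and Dhcr7 had one above 0. The domains of the measured members are few, the neighbours Phlda2 and Slc22a18 are 1 domain, and the parental classes were not compared by any test.

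Other imprinted genes, listed separately, moved in both directions. The table held 40 of them, of which 20 were measured, with a median log2 ratio of -0.05. Of these 20, 4 were at least 2-fold higher and 2 at least 2-fold lower, beside 7.90% and 8.37% of all measured genes. Higher in resistant cells were Copg2, the paraoxonase gene Pon3 (22.6 against 9.98 FPKM), the aromatic amino acid decarboxylase gene Ddc (14.5 against 6.62 FPKM) and Trappc9 (10.9 against 4.93 FPKM). Trappc9 was at the line, with a log2 ratio of 1.01, and shares its locus with the paternally expressed non-coding gene Peg13, which stood at 0.36 against 1.52 FPKM. Lower were Dio3 and Tssc4. Dio3 counted as measured only through the wild type library, so its large difference follows in part from how it entered. Mcts2, a paternally expressed retrogene inside H13, stood at 6.83 against 12.9 FPKM, and H13 at 34.4 against 33.8 FPKM.

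**Figure D4:**
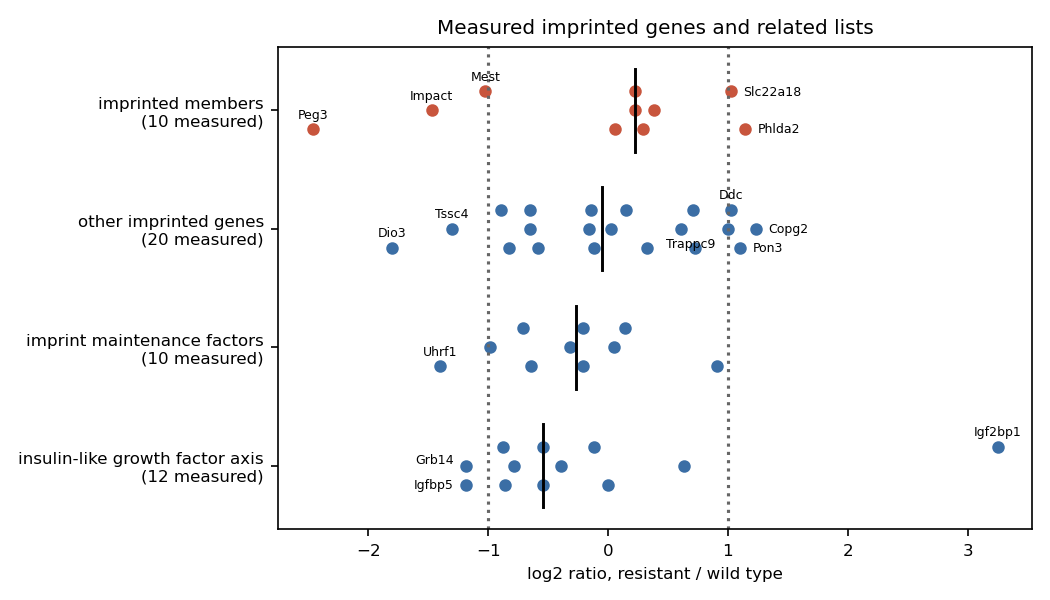
Log2 ratio of resistant to wild type for each measured gene of 4 lists (1 point a gene), with the median as a black bar and dotted lines at 2-fold. Genes past a line are named. Igf2bp1 stands at the far right at 3.25, Peg3 at the far left at -2.46, and the medians run from 0.22 for the imprinted members to -0.54 for the insulin-like growth factor axis.

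Of 13 genes that maintain or read imprints, 10 were measured, with a median log2 ratio of -0.26. Of these 10, 0 were at least 2-fold higher and 1 was at least 2-fold lower, beside 7.90% and 8.37% of all measured genes. Uhrf1, which brings the maintenance methyltransferase to newly replicated DNA, stood at 38.8 FPKM in resistant and 104.0 FPKM in wild type cells (log2 ratio -1.40). Dnmt1, that methyltransferase, stood at 47.2 and 42.6 FPKM. Trim28, which encodes KAP1, had the highest level of the list, at 113 and 177 FPKM. The KRAB zinc finger genes that guide KAP1 to imprints lay within 2-fold on this scale in opposite directions, Zfp57 at 12 against 5.92 FPKM and Zfp445 at 7.39 against 15.6 FPKM, and the histone methyltransferase gene Setdb1 stood at 5.57 against 9.73 FPKM.

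Because Igf2, Igf2r and Grb10 act on insulin-like growth factor signalling, the rest of that axis was set beside them. Of 21 genes 12 were measured, with a median log2 ratio of -0.54. Of these 12, 1 was at least 2-fold higher and 2 at least 2-fold lower, beside 7.90% and 8.37% of all measured genes. Igf2bp1, which encodes a fetal protein that binds Igf2 and other mRNAs, stood at 54.8 FPKM in resistant and 4.85 FPKM in wild type cells, a log2 ratio of 3.25, while Igf2 itself was at 0. Its relatives stood at 12.7 and 7.82 FPKM (Igf2bp2) and at 0.23 and 0.19 FPKM (Igf2bp3). The binding protein gene Igfbp5 (0.43 against 2.25 FPKM) and the adaptor gene Grb14, related to Grb10 (0.066 against 1.42 FPKM), were lower. Both counted as measured only through the wild type library, so their large differences follow in part from how they entered. The receptor genes Igf1r (3.78 against 5.97 FPKM) and Insr (7.55 against 8.26 FPKM) lay within 2-fold.

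As a check on the labelled cells, 7 of 8 ductal epithelial markers were measured, Krt8, Krt18 and Krt19 at over 1000 FPKM in both libraries, while Epcam was at 0.21 and 0.10 FPKM. Other ductal markers differed past the 2-fold line in opposite directions, Krt7 at 7.56 FPKM in wild type and 32.6 FPKM in resistant cells and Sox9 at 8.19 and 1.88 FPKM. All 7 fibroblast, 4 endothelial and 5 islet markers were under 1 FPKM. The summed level of 6 leukocyte markers was 1.59 FPKM in wild type and 7.24 FPKM in resistant cells, most of it Cd68, with Ptprc at 0 and 0.23 FPKM. Of 5 acinar markers 4 were listed at 0 in both libraries and Cela1 stood at 4.38 and 1.48 FPKM. The summed level of 4 neural markers was 3.97 and 1.31 FPKM, nearly all of it Tubb3. The part of other cells in the members' values was not tested.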

How the data were processed

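The table gives 1 library per cell state. HISAT2, StringTie and GRCm38 appear in the submitters' processing notes, without role or version. No unit is named, and from their steps and sums the deposited values were taken to be FPKM. Per the file headers, a log2 fold change, a test score, a p-value and a q-value came with them, quoted only as the authors' own.

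Rows sharing a symbol were summed, and 13 rows marked failed or too deep were left out, none of them members. Differences were log2((resistant FPKM + 1)/(wild type FPKM + 1)), and a gene was measured if either library reached 1 FPKM. The members, domains and lists were chosen with earlier results of these data known. All members are named, with list genes past the 2-fold line, the most abundant imprint factors and neighbours by position. Others (Kcnq1, Snhg14, Peg13, Mcts2, H13, Cd81, Nap1l4, Osbpl5, Tnfrsf22, Tnfrsf23, Dhcr7, Zim2, Zim3, Zfp264, the imprint factors besides Uhrf1 and Trim28, Igf2bp2, Igf2bp3, Igf1r and Insr) were chosen after their values were seen.

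Depth came from low values of single-transcript genes between 1000 and 8000 bases long. Within a tolerance of 0.1, 92.9% of them in wild type and 94.0% in resistant cells were whole fragments, at 0.0422 and 0.0436 FPKM per fragment for 1 kb after taking 140 bases off the length. Fragment numbers assume the longest transcript and are upper values, and intervals and limits cover counting error only. Sequences are from RefSeq on GRCm38.p6. Pseudocounts (0.1 and 5), the level filter (none and 5 FPKM), scaling (median and upper quartile), the row used per symbol and a 4-fold line were varied. Software was Python 3.11.15 with pandas 2.3.3, numpy 2.4.6, matplotlib 3.10.9 and scipy 1.17.1.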

Additional observations from a re-analysis of the deposited data

How the results depend on the processing

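Under the 8 alternatives 57 summary values stayed close to those reported (counts within 1.5 times, the median within 0.1) and 23 moved. Of the values for single named genes 124 kept their side of the line, 30 were no longer past it, and none past the line turned direction. The pseudocount and the fold line changed the calls most. At a pseudocount of 5 no member was past the line (0 higher, 0 lower, 0 domains), with Peg3 at -0.93 and Phlda2 at 0.91, and other imprinted genes (0 higher, 0 lower) and the growth factor axis (0 lower) lost theirs. At a pseudocount of 0.1 the maintenance factors had 1 higher and 2 lower. With a filter of 5 FPKM 1 member was lower, 2 domains held a call, 1 other imprinted gene was lower and 0 growth factor axis genes were lower. Peg3, Mest, Airn, Dio3, Grb14 and Igfbp5 were not measured under that filter and so have no value there. With no filter the members' median was 0.00, since 16 are at 0. Rescaled to the same upper quartile, 1 member and 2 other imprinted genes were higher and 2 maintenance factors were lower. At a 4-fold line 0 members were higher and 1 was lower (Peg3) in 1 domain, and 0 other imprinted genes were higher, 0 lower, 0 maintenance factors lower and 0 growth factor axis genes lower. No paired analysis was possible because each group has 1 library, and leaving out a library was not possible for the same reason. Low levels limit Mest, Airn, Usp29 and Nnat, which rest on at most about 75.5 fragments in either library.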
